A study of Mus musculus with 6 samples.

Results

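Mdm2, Btg2, Phlda1, Btg1, Gadd45b, Ddit3, Ddit4, Atf3, Sgk1 and Cited2 are mouse genes of the p53, stress and immediate-early responses, and the accessibility of SP1-bound DNA around them was compared between embryonic stem cells and neural progenitor cells. A site belonged to a gene when its midpoint lay inside the gene or within 50000 bp of either end (RefSeq, GRCm38.p6, which is mm10). All 10 genes had a site, and together they had 71 of the 9001 sites listed, 3 (Mdm2) to 13 (Ddit4) per gene. Btg2 and Atf3 lie on chromosome 1 and the other 8 on chromosome 10.

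Accessibility was measured by ATAC-seq, in which the Tn5 transposase cuts and tags open chromatin, in 3 libraries of R1 mESC (ESC, an embryonic stem cell line) and 3 libraries of R1 NPC (NPC, neural progenitor cells). R1 is given as the strain of both groups, and no label names a treatment, an age or a way of making the NPC. Nuclei came from cryopreserved cells, and no label says that a group's libraries were separate cultures, and the p-values therefore reflect library-to-library spread that could be technical alone. The table holds high-confidence sites of SP1, a zinc-finger factor that binds GC-rich promoter DNA, each 500 bp wide, on chromosomes 1 and 10 and on chromosome 11 up to position 20195189. For each site it gives the authors' mean signal (normalized counts averaged across libraries), their log2 fold change with its standard error (SE) and their adjusted p-value. It gives no value per library, so depth is unknown and no SD of a group can be shown. No column states the direction, and NPC over ESC is taken from the table's name. With that reading, 13 of 20 sites at the neural progenitor markers Fabp7, Meis1 and Pou3f3 rose and 2 fell, and 26 of 41 at the pluripotency markers Tfcp2l1, Nr5a2, Prdm14, Dnmt3l and Lefty1 fell and 5 rose, where 22.8% of all listed sites rose and 32.6% fell. The markers did not all lean one way, since Nr5a2 had 2 rises and 4 falls among 11 sites with a median above 0. They were chosen with earlier results of these data known, so their counts are no independent check of the direction.

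Most of these genes are rapidly induced, and several act as brakes on growth or signalling. Stress stabilises p53, which switches on Mdm2, Btg2 and other genes, and MDM2, a ubiquitin ligase, in turn marks p53 for destruction. Unfolded protein and lack of amino acids raise ATF4, which induces Ddit3 (CHOP), Atf3 and Ddit4, while growth factors, glucocorticoids and low oxygen between them induce Sgk1, Phlda1, Ddit4 and Cited2. In the embryonic mouse brain Btg2 marks progenitors that are about to make neurons.

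Of the transcription starts in the RefSeq promoter table, 14 belonged to 9 of these genes, 6 of them to Sgk1. That table had no entry for Phlda1. A start window here is the 300 bases from 250 before a start to 50 after it. A listed site covered at least 1 base of 7 windows, 1 each of Mdm2, Btg1, Ddit3, Ddit4, Atf3, Sgk1 and Cited2. The letters GGGCGG, the core of the GC box that SP1 binds, stood on either strand of 6 of these 7 windows, of 3 of the 7 windows with no listed site (Btg2, Gadd45b and 1 of Sgk1) and of 35.7% of the 32851 windows in that table. Windows under SP1 sites are selected for SP1 binding, so their share is a description only. The 4 windows whose site rose in NPC are shown first, and that of Ddit3, which alone among the 7 had no GGGCGG, is shown for comparison. All are from RefSeq, GRCm38.p6, 5′ to 3′ on the gene's strand, with GGGCGG and its complement CCGCCC in capitals.

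Atf3 (chr1:191183284-191183583, minus strand): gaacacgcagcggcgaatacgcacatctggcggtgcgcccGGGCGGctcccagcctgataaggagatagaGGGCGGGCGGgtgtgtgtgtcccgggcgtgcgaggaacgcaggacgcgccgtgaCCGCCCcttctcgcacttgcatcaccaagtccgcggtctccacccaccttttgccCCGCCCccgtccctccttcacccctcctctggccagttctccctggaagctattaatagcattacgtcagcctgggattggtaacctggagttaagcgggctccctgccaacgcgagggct
Sgk1 (chr10:21994416-21994715, plus strand): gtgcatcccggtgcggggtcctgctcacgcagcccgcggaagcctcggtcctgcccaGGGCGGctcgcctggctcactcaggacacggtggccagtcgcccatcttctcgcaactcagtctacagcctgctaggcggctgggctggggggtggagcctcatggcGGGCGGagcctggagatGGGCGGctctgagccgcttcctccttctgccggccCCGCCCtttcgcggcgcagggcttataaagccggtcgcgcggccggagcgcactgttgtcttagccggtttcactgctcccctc
Cited2 (chr10:17722978-17723277, plus strand): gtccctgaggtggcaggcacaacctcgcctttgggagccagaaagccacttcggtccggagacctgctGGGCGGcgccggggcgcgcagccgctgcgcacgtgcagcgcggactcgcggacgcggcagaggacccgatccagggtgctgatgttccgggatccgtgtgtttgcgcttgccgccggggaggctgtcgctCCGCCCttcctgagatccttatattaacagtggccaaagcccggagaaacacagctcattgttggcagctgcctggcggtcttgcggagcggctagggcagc
Ddit4 (chr10:59951721-59952020, minus strand): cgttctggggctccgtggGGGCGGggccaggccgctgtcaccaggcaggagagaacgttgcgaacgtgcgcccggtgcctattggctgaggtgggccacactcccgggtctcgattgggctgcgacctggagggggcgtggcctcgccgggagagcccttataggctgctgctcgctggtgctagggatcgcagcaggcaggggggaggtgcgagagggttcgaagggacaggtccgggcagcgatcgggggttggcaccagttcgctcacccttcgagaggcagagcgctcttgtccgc
Ddit3 (chr10:127290543-127290842, plus strand): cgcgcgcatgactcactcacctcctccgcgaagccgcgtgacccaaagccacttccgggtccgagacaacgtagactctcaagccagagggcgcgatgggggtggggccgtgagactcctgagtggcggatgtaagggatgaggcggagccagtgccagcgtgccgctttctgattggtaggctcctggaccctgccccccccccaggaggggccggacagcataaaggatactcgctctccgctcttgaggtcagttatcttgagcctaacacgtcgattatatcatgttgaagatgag

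The Atf3 window held 5 GC boxes, of which 1 pair overlaps by 2 bases, the Sgk1 window 4, the Cited2 window 2 and the Ddit4 window 1. Mdm2 and Btg1 had 2 each. The share of G and C was 60.7% in the Ddit3 window and 64.7% to 69.7% in the other 6, against a median of 57.7% for 3783 start windows of protein-coding genes in the listed regions. Other motifs were searched on both strands. The ATF4-type element TGATGNAA, found in 3.97% of all windows, stood in 1 of the 14 windows, at -110 to -103 from the Atf3 start, on the strand opposite to the gene (ttgcatca as printed). The cyclic AMP response element TGACGTCA, found in 1.79%, stood in that of Btg2 only, at -166 to -159, where no SP1 site is listed. The CArG box of serum response factor (1.63% of all windows) was in none of the 14. A p53 half-site (8.36% of all windows) was at 1 place, from -186 to -177 in the Mdm2 window. ACGTG, the core that hypoxia-inducible factors bind, was found in 19.6% of all windows and in those of Ddit4, Cited2, Ddit3, Gadd45b and 1 start of Sgk1. CCAAT and TATAAA, found in 37.4% and 13.6%, were each in the windows of several of these genes.

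SP1 sites over the starts of these genes had log2 fold changes above 0 at all 7, and 4 rose at the authors' adjusted p below 0.05, those of Atf3, Sgk1, Cited2 and Ddit4. Of the 999 listed sites over a start window of any protein-coding gene, 27.6% rose and 12.8% fell, 68.2% had a value above 0, and the median log2 fold change was 0.27, against 0.60 for the 7. The 7 were also stronger, with a median signal of 49.3 beside 22.5 for the 999. The part of signal in the difference between the medians was not tested. Fold changes were also centred on the median of all sites (-0.29) or of gene-end sites (0.18). Neither centring could bring any of the 7 below 0, since the first raises every value and the smallest of the 7 was 0.36. That all 7 stayed above 0 is therefore no test of their direction. The number that rose was 7 and 3 under these centrings, and 3 with recomputed p-values alone. Both centrings also use p-values recomputed from the fold change and its SE. No recomputed p was below the deposited one, so this method itself favours the loss of calls, here and below. These are bulk libraries, in which a change in accessibility per cell and a change in the share of cells with open chromatin cannot be told apart.

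Atf3, a stress-induced bZIP repressor gene, had the largest of these changes. Its start site, on chromosome 1 from 191183065 to 191183565, had a mean signal of 38.1 and rose by 1.16 ± 0.29 (SE) on the log2 scale, 2.24-fold, with an adjusted p of 0.000122 per the authors' deposited table. Sgk1 encodes a kinase of salt transport and cell survival. The site over its last annotated start (chromosome 10, 21994336 to 21994836), which is 5317 bp from the end of the gene, had a mean signal of 38.9 and rose by 0.97 ± 0.29, adjusted p = 0.00109, per the authors' deposited table. Cited2 encodes a cofactor that competes with HIF1A for the coactivators CBP and p300. At its start (17722919 to 17723419) the mean signal was 52.0 and the log2 fold change 0.90 ± 0.27, adjusted p = 0.000863, per the authors' deposited table. Ddit4 (REDD1) encodes an inhibitor of mTORC1 signalling. Its start site (59951667 to 59952167) had a mean signal of 49.3 and rose by 0.60 ± 0.26, 1.51-fold, adjusted p = 0.0237, per the authors' deposited table, a call lost with recomputed p-values.

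The start sites of Mdm2, Ddit3 and Btg1 did not pass the threshold, and their 95% intervals (log2 fold change ± 1.96 SE) all crossed 0. Before adjustment, the authors' deposited p-values were 0.0765, 0.0435 and 0.0483. For Ddit3 and Btg1 the intervals thus do not match the authors' p-values, and crossing 0 does not show an absence of change. Per the authors' deposited table, Mdm2 had 0.48 ± 0.31 with an adjusted p of 0.118 and an interval of -0.13 to 1.08. Ddit3, the gene of the stress factor CHOP, had 0.44 ± 0.24 with an adjusted p of 0.0738 and an interval of -0.03 to 0.92 per the authors' deposited table. Its site lies where the annotation also places Mbd6, a neighbouring methyl-binding domain gene. The site over the start of Btg1, an antiproliferative gene, had the highest mean signal of all 71 sites, 131, and a log2 fold change of 0.36 ± 0.20 (adjusted p = 0.0806, interval -0.02 to 0.75) per the authors' deposited table. A change above 2-fold in either direction lies outside these intervals of Ddit3 and Btg1, which take the authors' SE as given. In order of size the start sites ran Atf3, Sgk1, Cited2, Ddit4, Mdm2, Ddit3 and Btg1. Each interval overlapped those of its neighbours, and that of Atf3 (0.60 to 1.72) also overlapped that of Btg1.

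**Figure D1:**
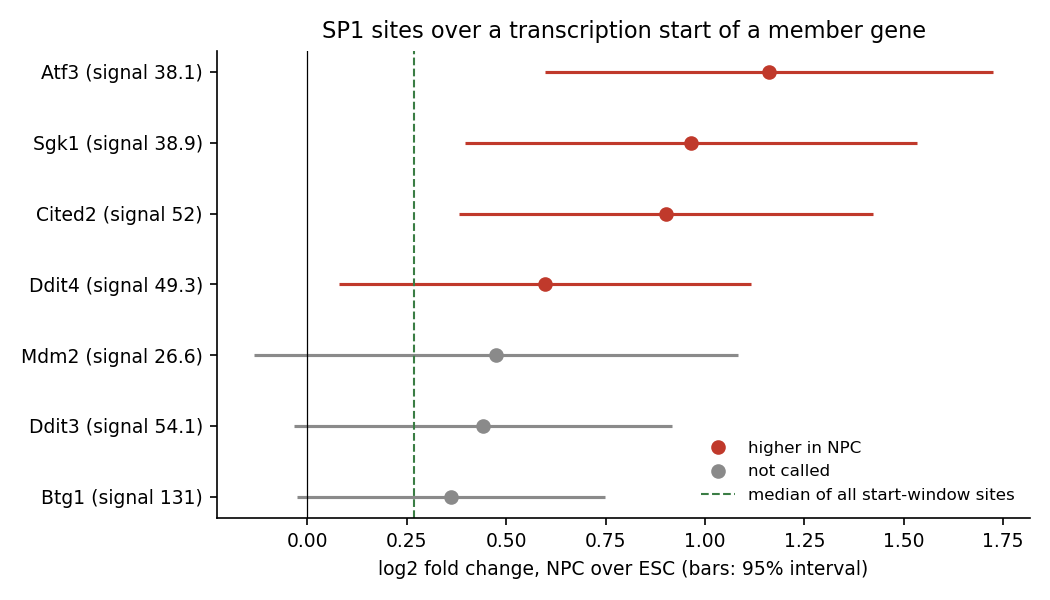
Log2 fold change, NPC over ESC, of the 7 SP1 sites over an annotated start, with 95% intervals from the authors' SE and the mean signal beside each gene name. Atf3, Sgk1, Cited2 and Ddit4 (red) rose, Mdm2, Ddit3 and Btg1 (grey) were not called, and all 7 points lie to the right of the dashed line, the median of 0.27 over all 999 start-window sites. The 999 sites had a median signal of 22.5, below the signal of each of the 7.

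Across all 71 sites 33 were called (46.5%, beside 55.4% of all listed sites). Of these 18 rose and 15 fell in NPC, and 38 sites were not called. The shares of 25.4% and 21.1% stand beside 22.8% and 32.6% of all 9001 listed sites, and the median log2 fold change was 0.26 beside -0.29. With fold changes centred on the median of all sites and p-values recomputed, 23 rose and 11 fell. Under that setting 23.1% of all listed sites rose and 22.8% fell. Both directions were called at 7 of the 10 genes. Btg2 had rises only, and Mdm2 and Ddit3 had falls only. Rises and falls differed in signal. The 18 rises had mean signals of 4.80 to 52.0 with a median of 21.3, and the 15 falls had 3.02 to 11.9 with a median of 6.16, against medians of 7.86 and 5.45 for the rises and falls among all listed sites. All 15 falls exceeded a log2 change of 1, as did 13 of the 18 rises, and the median fall was -3.36 where the median rise was 2.22. Among all listed sites the median fall was -3.24 and the median rise 3.03. Of those sites 32.1% fell and 20.3% rose by at least 1 on the log2 scale, so large falls were not particular to these genes. The part of read depth in these differences between rises and falls was not tested.

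**Figure D2:**
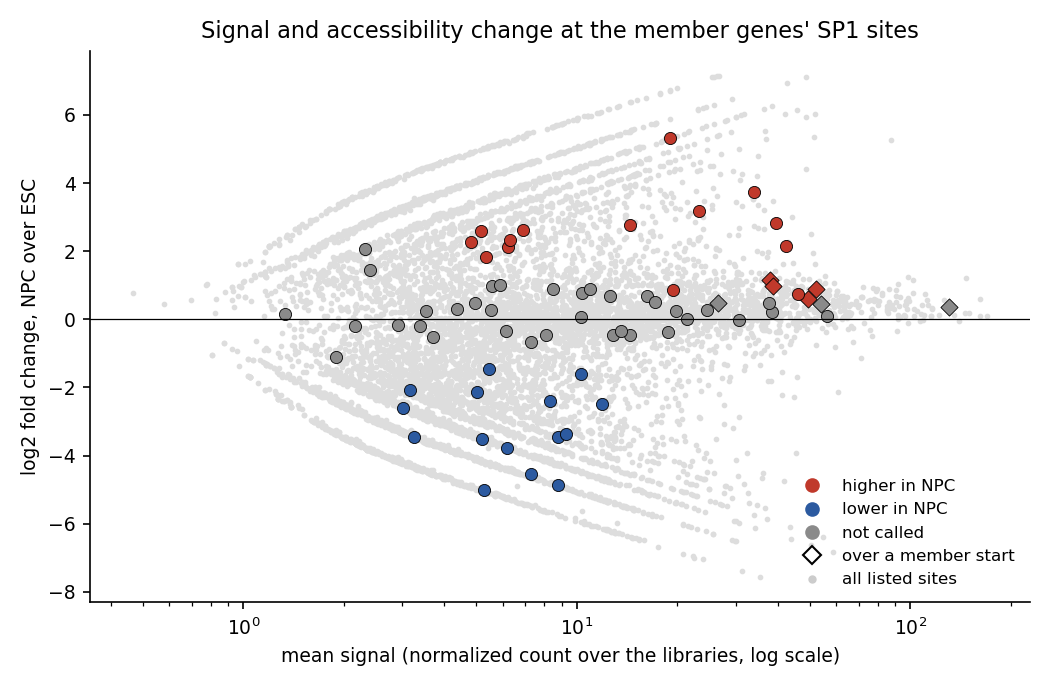
Log2 fold change, NPC over ESC, against mean signal (log axis) for the 71 sites (coloured by call, diamonds over a start) on all 9001 listed sites (light grey). The 15 falls lie at signals of 11.9 or less, while the rises extend to 52.0 and the start sites lie between 26.6 and 131.

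Calls were also counted by position. Of the 21 sites within 1000 bp of an end of any protein-coding gene, 5 rose and 1 fell, where 24.1% of all such listed sites rose and 16.1% fell. Of the 50 sites farther away, 13 rose and 14 fell, beside 22.5% and 35.9% of such listed sites. For 35 of the 71 sites the nearest gene end was that of another protein-coding gene, and 16 lay inside another such gene. The site counts per gene thus describe neighbourhoods, and a site near a gene need not regulate it.

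**Figure D3:**
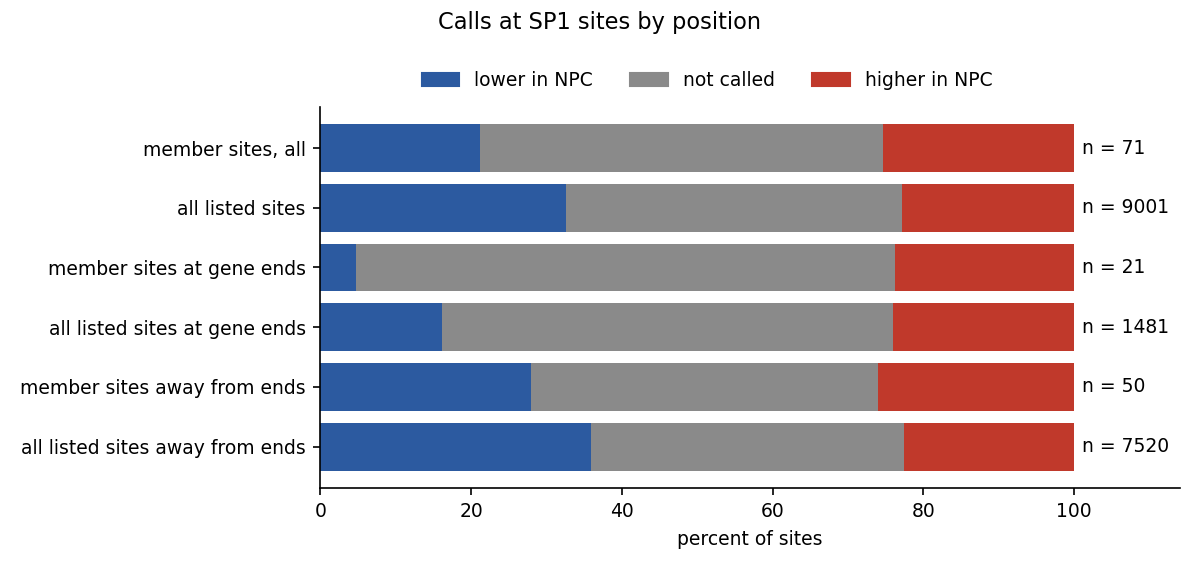
Percent of SP1 sites lower in NPC (blue), not called (grey) and higher in NPC (red) for these genes and for all listed sites, by position, with the number of sites at the right. Sites at gene ends include 1 fall among 21 for these genes and 16.1% falls among the 1481 in the whole table, and away from gene ends the shares are 14 of 50 and 35.9%.

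Of the p53 genes, Btg2 had rises at distant sites on both sides of the gene and Mdm2 had a fall at a distant one. Btg2 (chromosome 1, 134074865 to 134079155, minus strand) encodes an antiproliferative protein that recruits mRNA deadenylases. It had no site within 1000 bp of either end, and 4 of its 6 sites rose. Upstream, 17.6 kb from the gene, the site at 134096472 to 134096972 rose by 5.33 ± 0.99 on the log2 scale, adjusted p = 4.21e-07, per the authors' deposited table, the largest rise of the 71. Its mean signal was 19.0, and the nearest gene end, 14520 bp away, was that of Chit1. Downstream, a pair of sites that share 43 bp (134062594 to 134063094 and 134063051 to 134063551) rose by 3.18 ± 0.47 and 2.16 ± 0.30, with mean signals of 23.2 and 42.4 and adjusted p-values of 1.14e-09 and 1.44e-10 per the authors' deposited table. These overlapping sites are not independent. The upstream site 20.2 kb away rose by 0.86 ± 0.42, adjusted p = 0.0295, per the authors' deposited table, a call lost with recomputed p-values. That site too was nearest Chit1, 11932 bp away. The remaining pair, nearest the proteoglycan gene Fmod, had -0.51 ± 0.75 and 0.48 ± 0.66 and was not called per the authors' deposited table.

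Mdm2 (chromosome 10, 117688875 to 117710758, minus strand) had 3 sites. The site inside the gene 595 bp past the start (117709913 to 117710413) had a mean signal of 12.6 and a log2 fold change of 0.68 ± 0.45 (adjusted p = 0.109) per the authors' deposited table. Mdm2 is known to have a second, p53-responsive promoter in its first intron, whose position was not analysed here. The lone call was a fall of -3.46 ± 1.32, adjusted p = 0.00726, per the authors' deposited table, at a site 26.0 kb downstream inside the carboxypeptidase gene Cpm, with a mean signal of 3.25.

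Btg1 (chromosome 10, 96617001 to 96622813, plus strand), the close relative of Btg2, had an uncalled start between distal sites called in opposite directions. All 6 of its sites have Btg1 as the nearest gene. The site 23.8 kb downstream (96646357 to 96646857, mean signal 33.9) rose by 3.75 ± 0.45, 13.5-fold, with an adjusted p of 2.99e-14 per the authors' deposited table. Falls were called 7.38 kb upstream (-4.87 ± 1.16, adjusted p = 5.69e-05), 8.48 kb downstream (-3.52 ± 1.10) and 36.2 kb downstream (-1.60 ± 0.56), per the authors' deposited table. Their mean signals were 8.77, 5.21 and 10.3, all below that of the risen site. The site inside the gene had 0.02 ± 0.32 per the authors' deposited table, an interval of -0.61 to 0.65.

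Gadd45b (chromosome 10, 80930091 to 80932204, plus strand) encodes a stress sensor that is induced by neuronal activity and acts in DNA demethylation in the mouse brain. Of its 9 sites 2 rose and 2 fell. The site nearest its start, 901 bp upstream, did not pass the threshold with -0.46 ± 0.53 per the authors' deposited table (mean signal 8.06, adjusted p = 0.351). A site 4.54 kb downstream rose by 1.82 ± 0.81 (adjusted p = 0.0212) per the authors' deposited table, a call lost with recomputed p-values. The other rise, 0.75 ± 0.27 at a mean signal of 46.1 per the authors' deposited table, lay 1 bp from an end of Timm13, a mitochondrial import gene, and 29.1 kb from Gadd45b. That call was lost with centring on gene-end sites. Falls of -5.00 ± 1.21 and -3.46 ± 0.80 per the authors' deposited table (adjusted p = 6.30e-05 and 6.52e-05) lay inside Gng7, a G protein subunit gene, and inside the lamin gene Lmnb2.

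Ddit3 (chromosome 10, 127290793 to 127296291, plus strand) lies in a dense stretch of genes, and 8 of its 10 sites were nearest another one. None of the 10 rose, 2 fell and 8 were not called. The falls were inside Dctn2, a dynactin subunit gene (-3.79 ± 1.07, mean signal 6.16, adjusted p = 0.000667), and inside Arhgap9 (-2.40 ± 0.68, mean signal 8.33, adjusted p = 0.000983), per the authors' deposited table. The 8 uncalled sites had log2 fold changes of -0.46 to 0.68 per the authors' deposited table. They include the pair at Gli1, the Hedgehog effector gene, named for that place, with 0.25 ± 0.33 and -0.46 ± 0.40 per the authors' deposited table.

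Ddit4 (chromosome 10, 59949675 to 59951770, minus strand) had the most sites, 13, with 6 rises, 2 falls and 5 sites uncalled. Only 4 of the 13 had Ddit4 as the nearest gene. The rise of smallest adjusted p was the most distant, 49.9 kb downstream and 512 bp from an end of Dnajb12, a co-chaperone gene of the endoplasmic reticulum. There the mean signal was 39.5 and the log2 fold change 2.82 ± 0.34, adjusted p = 2.60e-14, per the authors' deposited table. A site 41.5 kb downstream rose by 2.76 ± 0.53 (adjusted p = 3.03e-06) and one 27.2 kb upstream by 2.63 ± 0.77 (adjusted p = 0.00125), per the authors' deposited table. The first was nearest Dnajb12 and the second nearest Anapc16. Falls were upstream of the gene, at 22.6 kb (-2.48 ± 0.56, adjusted p = 4.97e-05, nearest Anapc16) and 6.21 kb (-2.12 ± 0.86, adjusted p = 0.0133), per the authors' deposited table, the second lost with centring on all sites. A pair of sites that share 109 bp, chosen after their values were seen, differed. The site from 59916098 rose by 2.11 ± 0.76 with an interval of 0.63 to 3.60, and that from 59916489 had -0.34 ± 0.41 with an interval of -1.15 to 0.47, per the authors' deposited table. The difference between them was not tested.

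Atf3 (chromosome 1, 191170296 to 191183333, minus strand) had 7 sites. Besides the rise at its start, 1 site fell, 44.2 kb downstream and nearest Batf3 (-3.36 ± 0.77, mean signal 9.31, adjusted p = 5.41e-05, per the authors' deposited table). The site inside the gene 806 bp past the start had 0.51 ± 0.37 and the site deeper in the gene 1.02 ± 0.71, both uncalled per the authors' deposited table. Other values per the authors' deposited table were 2.07 ± 1.36, -0.36 ± 0.56 and -0.17 ± 0.78, at mean signals of 2.31, 6.12 and 2.91, and none was called.

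Phlda1 (chromosome 10, 111506286 to 111508649) encodes a pleckstrin-homology-like protein induced by growth factors. Its site inside the gene had 0.06 ± 0.42 per the authors' deposited table (interval -0.76 to 0.87, mean signal 10.3). Rises of 2.59 ± 0.91 and 2.28 ± 0.95 per the authors' deposited table lay 41.7 kb and 45.7 kb away on opposite sides, with adjusted p-values of 0.00531 and 0.0148, the second lost with centring on gene-end sites. The second site was nearest Nap1l1. Inside the neighbouring histone chaperone gene Nap1l1 a site fell by 1.45 ± 0.79 (adjusted p = 0.0492), and a strong site 263 bp from its end had 0.11 ± 0.23 at a mean signal of 56.1, per the authors' deposited table. The interval of that fall, -3.01 to 0.10, crossed 0, and the call was lost with recomputed p-values. The site 31.4 kb away had 0.99 ± 0.73 per the authors' deposited table.

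Sgk1 (chromosome 10, 21882184 to 21999903, plus strand) is the longest of these genes at 117.7 kb, and of its 5 sites 1 rose and 2 fell. The site near its first annotated start, 1617 bp past it, had 0.27 ± 0.57 at a mean signal of 5.53, per the authors' deposited table, where the risen site over the last start had a signal of 38.9. Upstream of the gene, at 36.3 kb, accessibility fell by 4.54 ± 1.19 on the log2 scale (adjusted p = 0.000214) per the authors' deposited table. A site in the middle of the gene had -2.06 ± 1.14 and an adjusted p of 0.04995, just below the threshold, per the authors' deposited table, with a mean signal of 3.16, and that call was lost with recomputed p-values. Downstream, the site 8.08 kb away had -0.21 ± 0.74 per the authors' deposited table.

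Cited2 (chromosome 10, 17723228 to 17725674, plus strand) had 3 sites within 1000 bp of its start. The risen one lay between the site 867 bp upstream (0.48 ± 0.27, mean signal 37.6, adjusted p = 0.0779) and the site 354 bp inside (0.26 ± 0.30, mean signal 24.5, adjusted p = 0.384), both uncalled per the authors' deposited table. The risen site and the inner one share 87 bp, and their intervals, 0.38 to 1.42 and -0.32 to 0.85, overlap. Farther out, a weak site 25.3 kb upstream fell by 2.61 ± 1.27 (mean signal 3.02, adjusted p = 0.0285) per the authors' deposited table, lost with recomputed p-values. Sites 17.6 kb upstream and 44.8 kb downstream had -0.20 ± 0.98 and -1.10 ± 1.30 per the authors' deposited table.

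**Figure D4:**
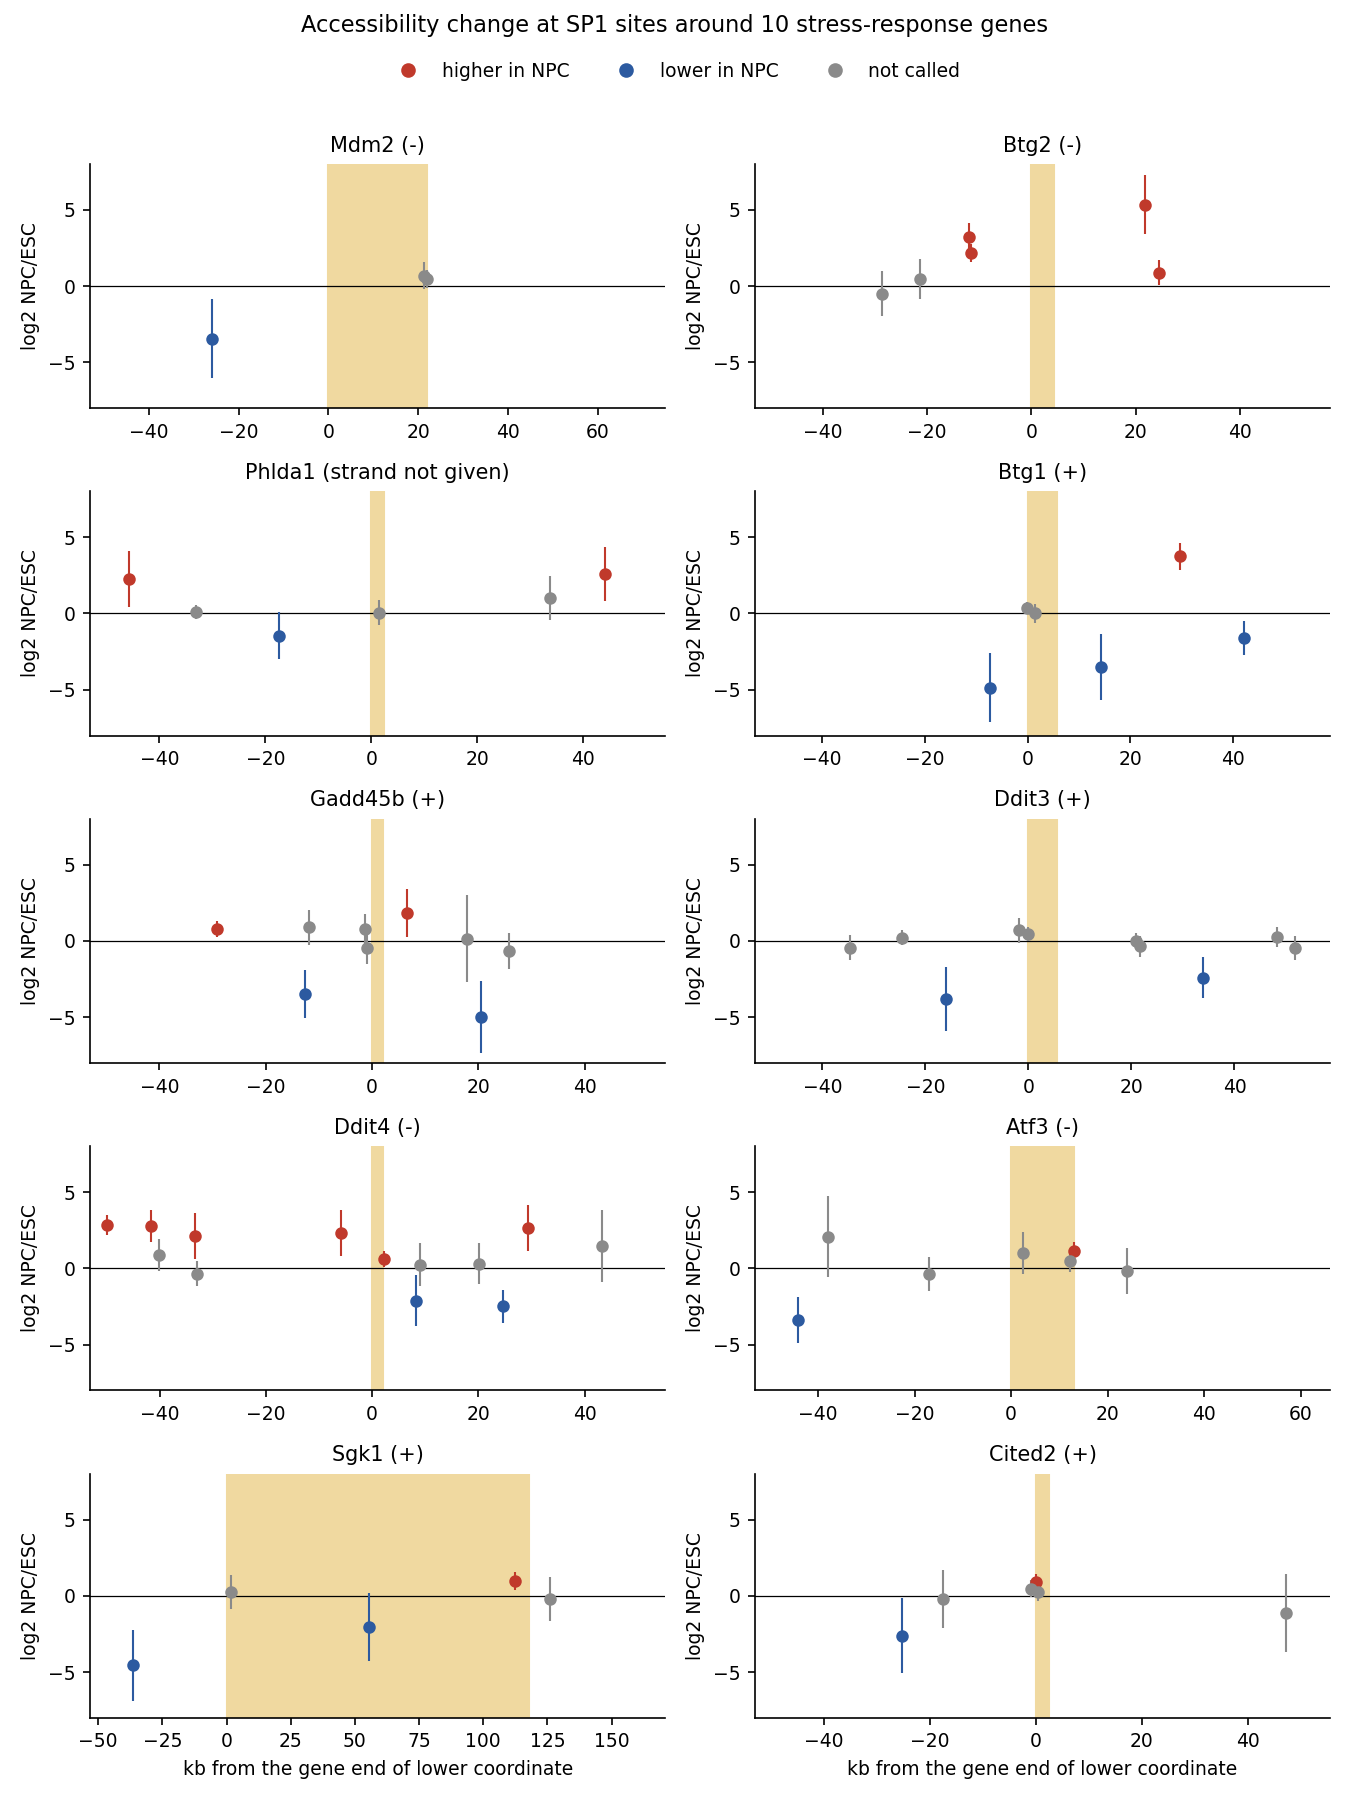
Log2 fold change, NPC over ESC, with 95% intervals, of each SP1 site around the 10 genes by distance in kb from the gene end of lower coordinate (gene shaded, strand in the title). The 7 start sites lie between 0.36 (Btg1) and 1.16 (Atf3) with short bars, and the largest values lie outside the genes, as at Btg2 (5.33) and Gadd45b (-5.00).

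The distance limit of the rule left out sites just beyond it. The outermost sites inside it were those 49.9 kb from Ddit4 (2.82), 46.2 kb from Ddit3 (-0.46) and 45.7 kb from Phlda1 (2.28), as log2 values of the authors' deposited table. The nearest outside were 50.2 kb from Phlda1 (1.80 ± 1.09) and 51.0 kb and 51.4 kb from Ddit4 (-0.56 ± 0.36 and 0.50 ± 0.30), none of them called per the authors' deposited table.

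Other genes of the same responses were described by the same distance rule, beside the 22.8% rises, 32.6% falls and median of -0.29 of all listed sites. Of 35 other p53 targets and regulators, 12 lay in the listed regions with sites. Rises made up 30 of these 94 sites (31.9%) and falls 24 (25.5%), with a median log2 fold change of 0.18. Of 38 other stress-response genes, 16 had sites, of which 16 of 92 rose (17.4%) and 32 fell (34.8%), median -0.14. Of 52 other immediate-early and growth-factor response genes, 14 had sites, of which 23 of 87 rose (26.4%) and 26 fell (29.9%), median 0.06. The last pair of lists lay near the shares of all sites.

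In each list the 3 leading sites by adjusted p, 1 per gene, went in both directions. Those of the p53 list were a fall 30.0 kb from the cytokine gene Lif (-3.54 ± 0.63), a fall 7.28 kb from the glutaminase gene Gls2 (-5.39 ± 1.00) and a rise 34.8 kb from Zfp365, a genome stability gene (4.42 ± 1.01), per the authors' deposited table. The stress list was led by a rise inside Mapkapk2, a kinase gene of the p38 pathway (3.52 ± 0.42 per the authors' deposited table), at a site that is also within reach of Dyrk3. Next, per the authors' deposited table, came a rise 87 bp from Foxo3, a forkhead factor gene of stress resistance (2.08 ± 0.40), and a fall inside the heat shock factor gene Hsf2 (-4.70 ± 1.01). The immediate-early list was led by a fall 39.0 kb from Socs2, a gene of cytokine signal restraint (-7.03 ± 1.13, nearest Mrpl42), followed by a rise 334 bp from Nab2, a corepressor gene of EGR factors (2.33 ± 0.41), per the authors' deposited table. Lif, which both the p53 and the immediate-early list hold, followed there and had 4 rises and 3 falls among 8 sites.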

How the data were processed

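Per the submitters' processing notes, reads were handled with BWA 2.1, Picard 2.23.8, MACS2 2.2.7, SAMtools 1.9 and DESeq2 on mm10. Not given in the sources used here are their roles and settings, the choice of SP1 sites and any Tn5 shift. The authors deposited, per the file headers, a mean signal (normalized count over the libraries), a log2 fold change with SE, and a p-value with its adjusted p-value for each site. Recomputed from fold change over SE, p was at least the deposited p-value at all 9001 sites (median ratio 2.35). The cause was not tested.

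Sites were assigned by midpoint with pandas 2.3.3 and NumPy 2.4.6. A site rose or fell when the deposited adjusted p was below 0.05. Intervals are the log2 fold change ± 1.96 SE, and the 95% level covers the authors' SE only. Recomputed p-values used SciPy 1.17.1 with Benjamini-Hochberg adjustment, and the code was run on simulated data. That run checked the code only, and it cannot show that the recomputed p-values suit these data. Centring, which also recomputes p, first subtracted the median of all sites (-0.29) or of sites within 1000 bp of a gene end (0.18). Other windows, thresholds and filters were tried. Cell type labels gave the groups. Exons, introns and UTRs were not analysed here. All sites were named for genes with up to 8 sites. For the other genes, the sites at gene ends, the 3 largest rises and falls and the strongest site were named, besides exceptions stated. Genes and lists were chosen with earlier results of these data known. All lists are reported.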

Additional observations from a re-analysis of the deposited data

How the results depend on the processing

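Of the 71 sites, 33 were called, 18 as rises and 15 as falls, with a median log2 fold change of 0.26. The window decided most of these counts. All listed sites, beside which these counts stand, had 22.8% rises, 32.6% falls and a median of -0.29. Within 10000 bp 10 of 26 sites were called (6 rises, 4 falls, median 0.46). Inside the genes or within 1000 bp 5 of 17 were called (4 and 1, median 0.48). The closest class of all listed sites, those within 1000 bp of a gene end, had 24.1% rises, 16.1% falls and a median of 0.18. With only sites nearest to the genes 17 of 36 were called (10 and 7, median 0.46). Within 100000 bp 58 of 113 were called, 24 as rises and 34 as falls (median 0.14). Falls then outnumbered rises, as they did among all listed sites. Among the 48 sites of at least median signal 15 rose, 8 fell and the median was 0.46. All such listed sites had 28.9% rises, 30.3% falls and a median of 0.04. Recomputed p-values alone gave 15 rises and 12 falls, beside 18.8% and 26.5% of all listed sites. With p-values recomputed, centring on all sites gave 23 rises, 11 falls and a median of 0.55, beside 23.1% and 22.8% of all listed sites. Centring on gene-end sites gave 13 rises, 12 falls and a median of 0.080, beside 16.3%, 28.8% and -0.47 for all listed sites. For the other pathway genes, 144 of 265 sites were called, beside 55.4% of all listed sites. Of those of at least median signal 83 of 161 were called, beside 59.2% of all such sites. The counts were 47 of 96 inside or within 1000 bp, 82 of 150 nearest, 67 of 127 within 10000 bp and 226 of 410 within 100000 bp. Shares of all listed sites in the same windows were not counted. Other settings moved these counts by no more than 1.5 times. Of 53 named sites, 6 calls were lost with recomputed p-values alone. Recomputed p was at least the deposited p at all 9001 sites, so this setting favours losses and is no independent check of a call. With centring on gene-end sites as well, 8 were lost, the same 6 and 2 more. With centring on all sites as well, 4 were lost, 3 of them among those 6, and 4 were gained. None reversed. No paired analysis was possible because the table holds no values per library, and for the same reason no replicate could be left out. Unknown depth limits all values, most at sites of low signal.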
